A study of Mus musculus with 12 samples.

Results

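The genes described here make cholesterol and fatty acids, control those pathways, or move sterols out of the cell. They are the members of a list of 37 genes governed by the sterol regulatory element-binding proteins (SREBPs) or by the liver X receptors (LXRs), picked by symbol. All 37 were found among the 35275 gene identifiers of the count table. All 37 also passed the filter on low counts that left 13821 genes to be tested. By role, 8 lead from acetyl-CoA to squalene, 10 from squalene to cholesterol, 5 control SREBP, 1 carries sterol inside the cell, 4 make palmitate, 5 lengthen or desaturate fatty acids, and 4 are an LXR gene and LXR targets.

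The samples were mouse Th17 cells, a class of helper T cell that secretes interleukin-17, made in culture from naive CD4+ T cells of wild-type genotype. Cells of each of the 4 groups were cultured for 72 h on plate-bound antibodies to CD3 and CD28, with TGF-B and IL-6, while interferon gamma and IL-4 were neutralised by antibody. The groups were Dex+IL-1B (dexamethasone, a synthetic glucocorticoid, given with interleukin-1 beta), IL-1B alone, Dex alone, and untreated, with 3 libraries each. The agents were present for the 4 h before harvest, and no dose is stated in the sources used here. Nothing in the labels says that the 3 libraries of a group came from separate mice or cultures, so p-values reflect no more than the spread among these libraries, which could be technical.

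Cholesterol is built from acetyl-CoA through mevalonate and squalene, and fatty acids are built from the same acetyl-CoA by carboxylation and repeated condensation. When sterol in the endoplasmic reticulum runs low, the escort protein SCAP carries SREBP to the Golgi, where proteases free a fragment that switches on the genes of synthesis and uptake, while INSIG proteins hold SCAP back when sterol is plentiful. LXRs sense oxidised sterols and switch on genes of sterol efflux. T cells raise SREBP activity when they are activated, since growing cells need membrane, and sterol intermediates of the pathway can serve as ligands of RORγt, the factor that defines Th17 cells.

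Promoters of 6 genes among those called below are printed: Hmgcs1, Idi1, Msmo1 and Fasn were called higher with IL-1B, Elovl6 was called higher with Dex, and Mylip had the largest fall with IL-1B. Except for that of Mylip, each of these calls was lost in some of the alternatives given below. Each runs from 250 bases before to 50 bases after the RefSeq transcript start on GRCm38.p6. Capitals mark the letters of a sterol regulatory element core (TCACNCCAC) or of a CCAAT box (CCAAT) on either strand.
Hmgcs1, chr13:119690101-119690400, plus strand: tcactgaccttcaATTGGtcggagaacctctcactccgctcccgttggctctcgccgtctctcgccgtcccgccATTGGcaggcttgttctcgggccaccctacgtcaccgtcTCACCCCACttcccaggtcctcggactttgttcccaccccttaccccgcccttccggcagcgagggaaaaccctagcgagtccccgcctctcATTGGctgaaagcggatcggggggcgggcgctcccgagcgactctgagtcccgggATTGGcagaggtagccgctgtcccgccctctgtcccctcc
Idi1, chr13:8885356-8885655, plus strand: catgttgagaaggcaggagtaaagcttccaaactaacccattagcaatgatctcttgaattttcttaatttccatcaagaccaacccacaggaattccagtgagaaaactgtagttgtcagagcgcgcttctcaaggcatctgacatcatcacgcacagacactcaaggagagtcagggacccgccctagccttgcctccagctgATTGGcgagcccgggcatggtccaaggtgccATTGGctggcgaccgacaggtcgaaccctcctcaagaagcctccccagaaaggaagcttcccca
Msmo1, chr8:64733529-64733828, minus strand: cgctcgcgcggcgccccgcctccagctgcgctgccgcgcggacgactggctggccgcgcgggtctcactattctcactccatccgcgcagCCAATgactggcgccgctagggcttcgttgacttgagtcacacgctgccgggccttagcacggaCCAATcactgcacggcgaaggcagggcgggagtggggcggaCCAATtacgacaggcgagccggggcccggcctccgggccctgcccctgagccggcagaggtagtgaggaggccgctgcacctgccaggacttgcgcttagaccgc
Fasn, chr11:120824498-120824797, minus strand: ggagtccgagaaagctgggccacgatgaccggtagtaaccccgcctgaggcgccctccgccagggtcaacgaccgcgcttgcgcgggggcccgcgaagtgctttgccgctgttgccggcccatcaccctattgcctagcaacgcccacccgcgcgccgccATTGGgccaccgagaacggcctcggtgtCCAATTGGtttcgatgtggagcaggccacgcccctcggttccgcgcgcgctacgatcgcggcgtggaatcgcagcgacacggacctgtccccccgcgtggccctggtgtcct
Elovl6, chr3:129532136-129532435, plus strand: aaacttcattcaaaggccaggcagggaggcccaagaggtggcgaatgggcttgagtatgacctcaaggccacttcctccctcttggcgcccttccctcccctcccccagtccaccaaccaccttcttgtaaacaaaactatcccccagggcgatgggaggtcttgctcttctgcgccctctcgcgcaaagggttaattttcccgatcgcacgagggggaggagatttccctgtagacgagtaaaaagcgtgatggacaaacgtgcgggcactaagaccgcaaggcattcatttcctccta
Mylip, chr13:45389492-45389791, plus strand: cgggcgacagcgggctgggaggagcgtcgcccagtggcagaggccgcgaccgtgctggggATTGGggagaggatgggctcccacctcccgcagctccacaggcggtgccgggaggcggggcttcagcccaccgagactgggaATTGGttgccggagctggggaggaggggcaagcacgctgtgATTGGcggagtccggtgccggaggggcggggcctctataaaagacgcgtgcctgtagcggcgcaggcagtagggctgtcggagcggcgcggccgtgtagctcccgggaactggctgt

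A promoter of this length was matched for 29 of the 37 genes, by the RefSeq start nearest to the start of the gene. That of Acaca (chr11:84195188-84195487) lies inside the gene, which starts at 84129672, and is counted among the 29. The letters of each promoter were searched on both strands for 5 motifs. Matches of different motifs were counted separately even where they share letters, as a GC box and an NF-kB match do in Hmgcs1 and in Idi1. The sterol regulatory element core was found in 1 of the 29, Hmgcs1, against 1.24% of all 32851 promoters of the same length. In Hmgcs1 it began at position -137 from the start, with CCAAT boxes beginning at -237, -176, -45 and 11. CCAAT boxes, bound by the NF-Y factor that acts beside SREBP at many sterol genes, were in 21 of the 29 (72.4%), against 37.4% of all promoters. GC boxes (GGGCGG) were in 22 of the 29 (75.9%), against 35.7%. A reduced NF-kB consensus (GGGA and CC with 4 bases of any kind between them) was in 10 of the 29 (34.5%), against 20.7%. The glucocorticoid response palindrome (AGAACA and TGTTCT with 3 bases between them) was in 0 of the 29 and in 0.00913% of all promoters. These are matches of letters in a short window, and no test was made of them. The 32851 promoters were not limited to genes that passed the low-count filter, as the 37 genes did, so the sets are unlike.

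Total counts ran from 16904106 to 30445734 per library, and counts of the 37 genes from 34 to 49616 per library. Genes known to respond to each agent were examined as a check of the labels. Dex raised the glucocorticoid-induced genes Fkbp5 by 1.12 ± 0.10 and Klf9 by 1.40 ± 0.10 on the log2 scale (± SE; adjusted p = 4.83e-05 and 1.00e-05), while Tsc22d3 had 1.41 ± 0.48 and was not called (adjusted p = 0.328). IL-1B raised the NF-kB target Nfkbia by 1.17 ± 0.12, Il17a by 2.50 ± 0.31 and Il2 by 3.56 ± 0.30 (adjusted p = 5.24e-05, 0.000562 and 3.11e-05). The 11 markers of CD4 T and Th17 cells summed to 1871 to 2208 CPM (reads scaled to library size) in Dex+IL-1B libraries, 2112 to 2274 with IL-1B, 1601 to 1910 with Dex and 1877 to 2063 in untreated libraries. The 7 B cell markers summed to 88.0 to 99.2, 87.1 to 101 and 87.9 to 108 CPM in those treated groups, against 113 to 179 CPM in untreated libraries. Of 6 markers of CD8 T and NK cells 3 could be tested, and the 6 summed to 13.6 to 14.3, 11.5 to 14.1 and 8.20 to 11.5 CPM in those treated groups, against 8.43 to 9.97 CPM in untreated libraries. Of 9 myeloid markers 3 could be tested, with sums of 4.15 to 7.32 CPM over all libraries, and of 4 gamma-delta T cell markers 3 were in the table and 1 was tested. None of the markers in the table was at 0 in every library.

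In untreated cells the highest level per kilobase of exon was that of Scd2, a desaturase that places the double bond of oleate, at 275 ± 35.2 FPKM (SD, n = 3). FPKM here is CPM divided by the summed exon length of the gene in kilobases. Acly, which cleaves citrate into cytosolic acetyl-CoA, followed at 100.01 ± 15.5 FPKM, and Srebf2, the SREBP gene tied most closely to cholesterol synthesis, at 75.8 ± 1.85 FPKM. From Fdps (50.6 ± 11.8 FPKM) through Hmgcs1, Fasn, Insig1, Mvd and Srebf1 to Cyp51 (43.3 ± 3.57 FPKM), neighbours in this order overlapped in their library values. The lowest were Acss2 (2.48 ± 0.37 FPKM), which makes acetyl-CoA from acetate, the sterol exporter Abca1 (1.82 ± 0.32 FPKM) and Mylip (1.67 ± 0.37 FPKM). Mylip, also called IDOL, is a ubiquitin ligase that marks lipoprotein receptors for decay. Scd1, the near relative of Scd2, had 26.4 ± 5.32 FPKM. Both levels are uncertain, since how any reads shared by such near copies were counted is not stated.

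**Figure D1:**
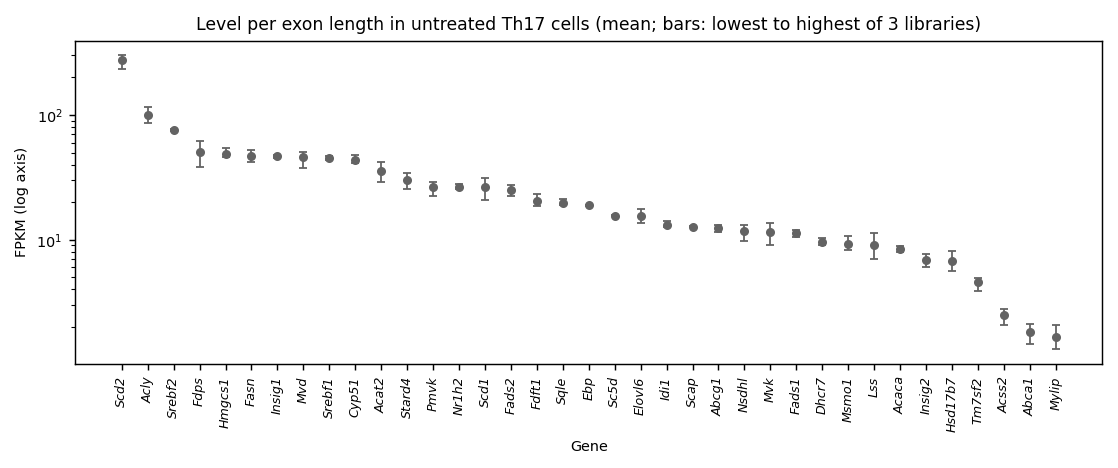
Level per kilobase of exon (FPKM, log axis) of each of the 37 genes in untreated Th17 cells, as the mean of 3 libraries with bars from the lowest to the highest library. Scd2 stands alone at 275 FPKM, and Acss2, Abca1 and Mylip lie at or below 2.48 FPKM.

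With IL-1B alone, 5 of 18 enzymes of cholesterol synthesis rose and none fell by the test, 3 of 4 genes of palmitate synthesis rose and 1 fell, 2 of 5 genes of SREBP control rose and 1 fell, and 2 LXR targets fell. Of the 37 genes, 15 were called at an adjusted p under 0.05 by the edgeR quasi-likelihood test, against 21.4% of all genes tested. Higher were 11 (background 11.9%): Hmgcs1, Idi1, Sqle, Cyp51, Msmo1, Srebf2, Scap, Acly, Acaca, Fasn and Fads2. Lower were 4 (background 9.51%): Srebf1, Acss2, Abca1 and Mylip. The median log2 difference of the 37 genes was 0.14, and that of all genes tested was 0.00. Every IL-1B library exceeded every untreated one for 14 of the 37 genes (background 20.2%), and the reverse held for 7 (background 18.9%). In these bulk samples, fewer cells of a type and less RNA per cell cannot be told apart. Summed B cell markers were lower and summed CD8 T and NK cell markers higher in the IL-1B libraries than in untreated libraries, by the ranges given above. Single markers differed: Ighm averaged 54.1 CPM with IL-1B against 88.0 CPM untreated, but Pax5 9.35 against 7.24 CPM. Cd8a averaged 4.58 against 3.54 CPM and Cd8b1 6.87 against 4.54 CPM, but the NK-type marker Klrk1 0.61 against 0.67 CPM. The part of these markers in the result was not tested. In a simulation of this comparison over 13821 genes, the test found 28.4% of 67 genes given a 1.5-fold change and 67.2% of 67 given a 2-fold change. Apart from these, only 66 genes were changed, by 4-fold, far fewer in all than the 2959 genes called in the data. The adjusted threshold was therefore stricter in the simulation, and its shares need not hold for these data.

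**Figure D2:**
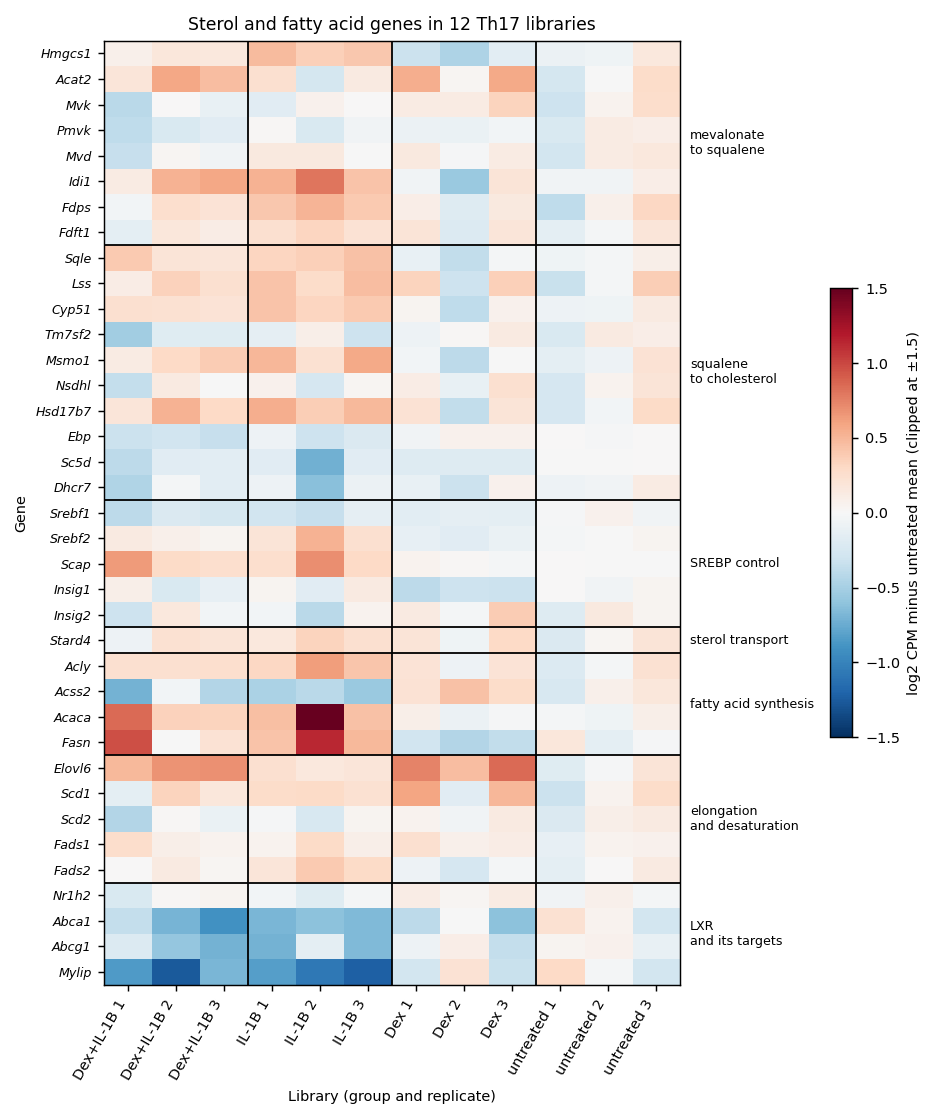
Each cell is the log2 CPM of a gene (lines, grouped by role) in a library (columns, grouped by treatment) minus the mean log2 CPM of the 3 untreated libraries, clipped at 1.5 in either direction. Mylip and Abca1 are blue in every IL-1B and Dex+IL-1B library, and Elovl6 is red in every Dex and Dex+IL-1B library.

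Of the 8 genes from acetyl-CoA to squalene, 2 rose with IL-1B (background 11.9%) and 6 were not called. Hmgcs1 encodes the synthase that makes hydroxymethylglutaryl-CoA, and lies on chromosome 13 from 119690379 to 119708260 (GRCm38). Hmgcs1 had 235, 249.7 and 249 CPM in the Dex+IL-1B libraries, 309.6, 285 and 295 CPM with IL-1B, 179, 161 and 199 CPM with Dex, and 209.7, 212 and 248 CPM in untreated libraries. All IL-1B libraries lay above all other libraries, and the Dex+IL-1B libraries overlapped the untreated ones. With IL-1B against untreated the log2 difference was 0.41 ± 0.10 (adjusted p = 0.00826), and the call was lost without untreated 2 (adjusted p = 0.0589, spanning 0.000687 to 0.0589 across settings). Idi1, the isomerase of the basic isoprene units, had 50.4, 66.4 and 69.3 CPM in the Dex+IL-1B libraries, 66.8, 81.1 and 62.3 CPM with IL-1B, 44.4, 31.4 and 53.1 CPM with Dex, and 44.6, 44.7 and 49.7 CPM in untreated libraries. Both groups given IL-1B lay above the untreated libraries, and Dex 3 overlapped Dex+IL-1B. Idi1 rose by 0.60 ± 0.17 (adjusted p = 0.0253), but was not called without untreated 1 or 2, or IL-1B 1 or 2 in turn (adjusted p = 0.0825, 0.103, 0.0514 and 0.0998), with no low-count filter (adjusted p = 0.0605) or without both rRNA-rich libraries described below (adjusted p = 0.0690, spanning 0.00780 to 0.103 across settings). The synthases Fdps and Fdft1, which make farnesyl diphosphate and squalene, were higher in every IL-1B library than in every untreated one, at 0.41 ± 0.15 and 0.26 ± 0.12, without a call (adjusted p = 0.0655 and 0.151). Fdps was called by DESeq2 (adjusted p = 0.0418) and without untreated 3 (adjusted p = 0.0187, spanning 0.0187 to 0.251 across settings). The kinases Mvk and Pmvk, the decarboxylase Mvd and the thiolase Acat2 had differences of -0.09 to 0.08 and overlapped between the groups.

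Of the 10 genes from squalene to cholesterol, 3 rose with IL-1B (background 11.9%), none fell by the test (background 9.51%) and 7 were not called. Sqle, the epoxidase that commits squalene to sterols, had 144, 126 and 125 CPM in the Dex+IL-1B libraries, 138, 141 and 149 CPM with IL-1B, 101, 84.7 and 108 CPM with Dex, and 105, 108 and 117 CPM in untreated libraries. The 6 libraries given IL-1B all lay above the 6 without it. Its log2 difference was 0.37 ± 0.10 (adjusted p = 0.0155), and it was not called without untreated 1 or 2, or IL-1B 3 in turn (adjusted p = 0.0613, 0.0762 and 0.0532, spanning 0.00505 to 0.0762 across settings). Cyp51, the demethylase of lanosterol, had 225, 224 and 220.4 CPM in the Dex+IL-1B libraries, 256, 238 and 251 CPM with IL-1B, 197, 146 and 199.6 CPM with Dex, and 181, 183 and 209 CPM in untreated libraries. Here too the 6 libraries given IL-1B lay above the others, and IL-1B lay above Dex+IL-1B. Cyp51 rose by 0.38 ± 0.11 (adjusted p = 0.0254), a call lost without untreated 1 or 2, or IL-1B 1 or 3 in turn (adjusted p = 0.0976, 0.119, 0.0816 and 0.0655, spanning 0.00621 to 0.119 across settings). Msmo1, the methylsterol oxidase that acts after it, had 61.7, 69.9 and 74.0 CPM in the Dex+IL-1B libraries, 80.2, 66.6 and 84.5 CPM with IL-1B, 54.9, 42.9 and 56.6 CPM with Dex, and 51.3, 53.9 and 65.7 CPM in untreated libraries. IL-1B lay narrowly above untreated without overlap. The difference was 0.44 ± 0.13 (adjusted p = 0.0290), not called without untreated 1 or 2, or IL-1B 1 or 3 in turn (adjusted p = 0.125, 0.131, 0.0931 and 0.110) or in a fit to the compared groups alone (adjusted p = 0.0542, spanning 0.00959 to 0.131 across settings).

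The other 7 genes of this branch were not called. Hsd17b7, the ketoreductase, was higher in every IL-1B library, at 0.46 ± 0.16 (adjusted p = 0.0586). It was called by DESeq2 and limma-voom (adjusted p = 0.0402 and 0.0493) and without untreated 3 or Dex 2 in turn (adjusted p = 0.0270 and 0.0285, spanning 0.0270 to 0.221 across settings). Lss, lanosterol synthase, had 0.36 ± 0.18 and was called only without untreated 3 (adjusted p = 0.0476, spanning 0.0476 to 0.498 across settings). Sc5d, a sterol desaturase near the end of the pathway, was lower in every IL-1B library, at -0.34 ± 0.12 (adjusted p = 0.0693). Sc5d was called by DESeq2 and with no low-count filter (adjusted p = 0.0477 and 0.0408) and without IL-1B 1 or 3 in turn (adjusted p = 0.0469 and 0.0452, spanning 0.0408 to 0.169 across settings). Ebp, the isomerase before it, was also lower in every IL-1B library, at -0.20 ± 0.08 (adjusted p = 0.108). Ebp had 34.7, 35.5 and 34.1 CPM in the Dex+IL-1B libraries, 41.4, 35.0 and 37.3 CPM with IL-1B, 42.0, 45.6 and 45.7 CPM with Dex, and 43.6, 43.2 and 43.8 CPM in untreated libraries. The reductases Tm7sf2 and Dhcr7 and the dehydrogenase Nsdhl had differences of -0.24 to -0.06 and overlapped between the groups.

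Among the 5 genes of SREBP control, 2 rose with IL-1B (background 11.9%), 1 fell (background 9.51%) and 2 were not called. Srebf2 had 596, 574 and 562 CPM in the Dex+IL-1B libraries, 623, 782 and 643 CPM with IL-1B, 498, 483 and 508 CPM with Dex, and 532, 542 and 559 CPM in untreated libraries. No group overlapped another: IL-1B was highest, then Dex+IL-1B, untreated and Dex. With IL-1B the log2 difference was 0.33 ± 0.09 (adjusted p = 0.0205), not called without untreated 1 or 2 in turn (adjusted p = 0.0657 and 0.0853) or in a fit to the compared groups alone (adjusted p = 0.0783, spanning 0.00448 to 0.0853 across settings). Scap had 148, 116 and 114 CPM in the Dex+IL-1B libraries, 113, 154 and 117 CPM with IL-1B, 98.5, 96.2 and 92.8 CPM with Dex, and 95.6, 94.3 and 94.9 CPM in untreated libraries. The 6 libraries given IL-1B lay above the 6 without it, with a wide spread inside each. Scap rose by 0.43 ± 0.12 (adjusted p = 0.0228), and by 0.28 without IL-1B 2. Its call was lost without untreated 1, 2 or 3, or IL-1B 2 in turn (adjusted p = 0.0560, 0.0822, 0.0524 and 0.0753, spanning 0.00422 to 0.0822 across settings).

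Srebf1, the SREBP gene tied most closely to fatty acid synthesis and itself an LXR target, moved the other way from Srebf2. It had 194, 219 and 212 CPM in the Dex+IL-1B libraries, 208, 199.8 and 232 CPM with IL-1B, 229, 232 and 229.5 CPM with Dex, and 252, 266 and 246 CPM in untreated libraries. Every treated library lay below every untreated one. Srebf1 fell by 0.25 ± 0.08 with IL-1B (log2, adjusted p = 0.0414). That call was lost without untreated 1, 2 or 3, Dex 1 or 3, IL-1B 1 or 2, or Dex+IL-1B 3 in turn (adjusted p = 0.0813, 0.138, 0.0561, 0.0571, 0.0542, 0.102, 0.0971 and 0.0573). It was lost too with no low-count filter and in a fit to the compared groups alone (adjusted p = 0.0635 and 0.0863, spanning 0.00841 to 0.138 across settings). Insig1, the sterol-sensitive brake on SCAP, had 154, 123 and 132 CPM in the Dex+IL-1B libraries, 149, 129 and 159 CPM with IL-1B, 109.8, 117 and 116 CPM with Dex, and 146, 139.8 and 149 CPM in untreated libraries. IL-1B and untreated overlapped, with a difference of 0.01 ± 0.10, while every Dex library was below every other library. Its relative Insig2 had -0.13 ± 0.16 with IL-1B, and Stard4, a carrier of sterol between membranes, had 0.23 ± 0.12, neither called.

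**Figure D3:**
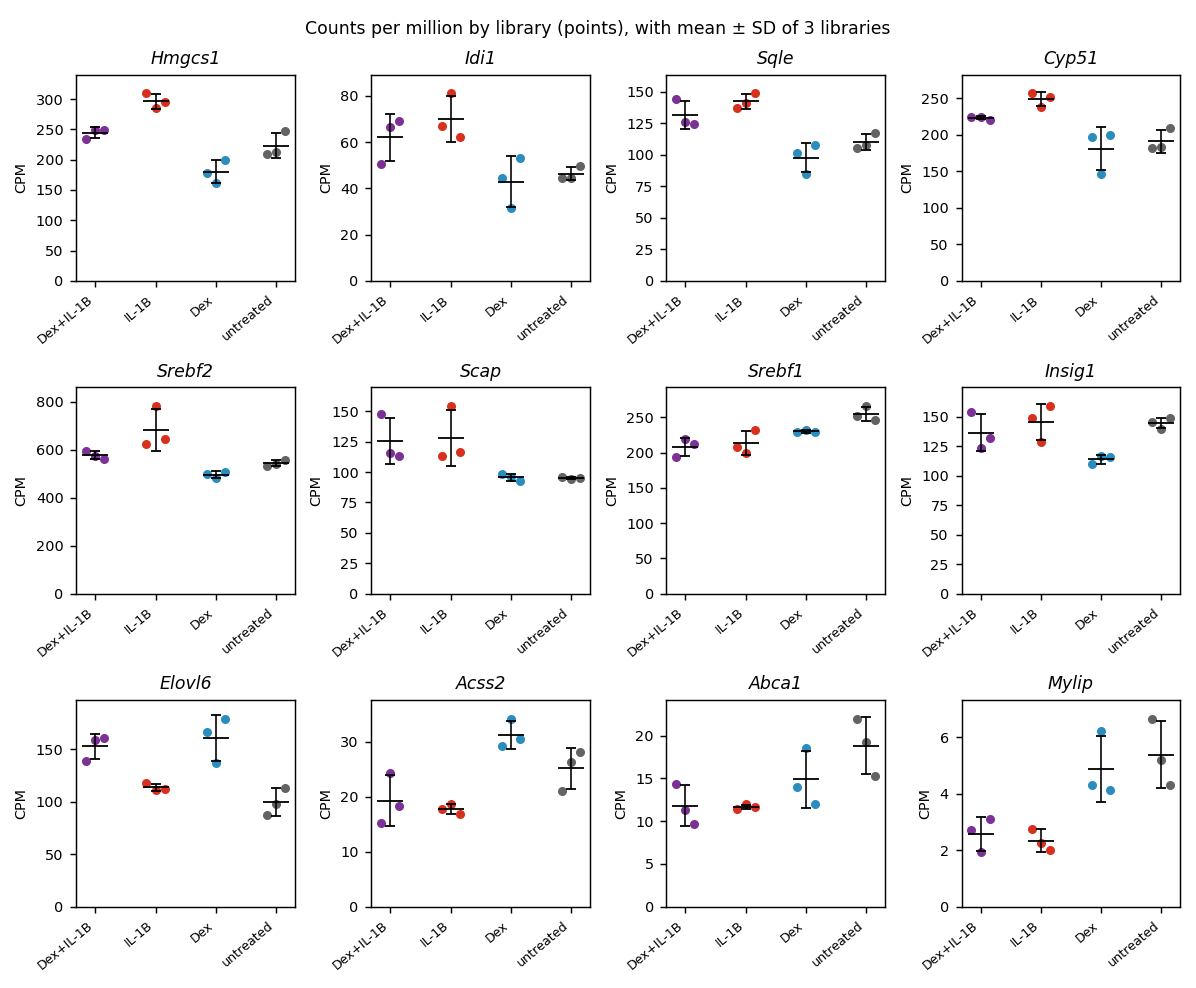
CPM of 12 genes in each library (points), with the mean and SD of 3 libraries (bars), for Dex+IL-1B, IL-1B, Dex and untreated cells from left to right, each axis starting at 0. Hmgcs1, Idi1, Sqle, Cyp51, Srebf2 and Scap stand higher with IL-1B than in untreated cells, and Acss2, Abca1 and Mylip lower.

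The 4 genes of palmitate synthesis were all called with IL-1B, 3 higher (background 11.9%) and 1 lower (background 9.51%). Acly had 619, 619 and 623 CPM in the Dex+IL-1B libraries, 651, 809 and 697 CPM with IL-1B, 602, 498 and 604 CPM with Dex, and 454, 514 and 615 CPM in untreated libraries. The IL-1B libraries were above all others. It rose by 0.45 ± 0.12 (adjusted p = 0.0176), a call lost without untreated 1 or 2, or IL-1B 2 in turn (adjusted p = 0.0831, 0.0792 and 0.0559) and in a fit to the compared groups alone (adjusted p = 0.0570, spanning 0.00424 to 0.0831 across settings). Acaca, the carboxylase that makes malonyl-CoA, had 258, 183 and 181 CPM in the Dex+IL-1B libraries, 197, 438 and 194 CPM with IL-1B, 153, 134 and 142 CPM with Dex, and 140.4, 137 and 153 CPM in untreated libraries. The libraries given IL-1B all exceeded the others, and IL-1B 2 stood far above its group. Acaca rose by 0.95 ± 0.27 (adjusted p = 0.0272), and by 0.45 without IL-1B 2, where it was still called. Its call was lost without untreated 1, 2 or 3 in turn (adjusted p = 0.0686, 0.0944 and 0.0517), with no low-count filter (adjusted p = 0.101) and in a fit to the compared groups alone (adjusted p = 0.0555, spanning 0.000801 to 0.101 across settings).

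Fasn encodes the synthase that builds palmitate, and its library values are given although the rule for such values did not pick it, a choice made after they were seen. Fasn had 1003, 508 and 593 CPM in the Dex+IL-1B libraries, 689.7, 1124 and 721 CPM with IL-1B, 419.6, 377 and 396 CPM with Dex, and 574, 462 and 507 CPM in untreated libraries. Every IL-1B library was above every untreated one, every Dex library was below, and Dex+IL-1B overlapped untreated. Fasn rose by 0.72 ± 0.23 with IL-1B (adjusted p = 0.0466), and by 0.46 without IL-1B 2. That call was lost without untreated 1, 2 or 3, Dex 1, 2 or 3, IL-1B 2 or 3, or Dex+IL-1B 3 in turn (adjusted p = 0.0624, 0.156, 0.101, 0.0612, 0.0579, 0.0630, 0.208, 0.0506 and 0.0547). It was lost too with median-ratio scaling and with no low-count filter (adjusted p = 0.0518 and 0.161, spanning 0.00377 to 0.208 across settings). Acss2 went down: it had 15.1, 24.2 and 18.3 CPM in the Dex+IL-1B libraries, 17.8, 18.7 and 16.8 CPM with IL-1B, 29.1, 34.1 and 30.4 CPM with Dex, and 21.0, 26.3 and 28.2 CPM in untreated libraries. IL-1B lay below untreated and Dex above it, with no overlap. With IL-1B Acss2 fell by 0.50 ± 0.16 (log2, adjusted p = 0.0352), a call lost without untreated 2 or 3, or IL-1B 1, 2 or 3 in turn (adjusted p = 0.107, 0.108, 0.0760, 0.0581 and 0.0846, spanning 0.0130 to 0.108 across settings).

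Of the 5 genes that lengthen or desaturate fatty acids, 1 rose with IL-1B (background 11.9%). Fads2, the desaturase that opens the synthesis of long polyunsaturated fatty acids, averaged 101 ± 7.44 CPM with IL-1B against 82.7 ± 8.27 CPM in untreated libraries (SD, n = 3 each). The difference of 0.28 ± 0.10 (adjusted p = 0.0486) was the weakest of the calls. It was lost without untreated 1, untreated 2, Dex 1, Dex 3, any of the IL-1B libraries or any of the Dex+IL-1B libraries (adjusted p = 0.202, 0.148, 0.0760, 0.0701, 0.0529, 0.121, 0.104, 0.0519, 0.0624 and 0.0765). It was also lost with median-ratio scaling, with no low-count filter, in a fit to the compared groups alone and without both rRNA-rich libraries (adjusted p = 0.0529, 0.103, 0.102 and 0.0806, spanning 0.0368 to 0.202 across settings). The elongase Elovl6, Fads1, Scd1 and Scd2 had differences of -0.08 to 0.25 and overlapped between IL-1B and untreated libraries.

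Of the 4 genes of the LXR group, Mylip and Abca1 fell with IL-1B (background 9.51%), and Abcg1 and the receptor gene Nr1h2 were not called. Mylip had 2.71, 1.92 and 3.12 CPM in the Dex+IL-1B libraries, 2.77, 2.27 and 1.99 CPM with IL-1B, 4.31, 6.24 and 4.12 CPM with Dex, and 6.65, 5.20 and 4.31 CPM in untreated libraries. The 6 libraries given IL-1B all lay below the 6 without it. At -1.20 ± 0.26 (log2, adjusted p = 0.00559) this was the largest of the 37 differences with IL-1B, although it rests on the lowest counts of the list, and its call held in every alternative (adjusted p = 0.000245 to 0.0251). Abca1 had 14.4, 11.3 and 9.65 CPM in the Dex+IL-1B libraries, 11.4, 11.9 and 11.6 CPM with IL-1B, 14.03, 18.6 and 12.02 CPM with Dex, and 21.9, 19.3 and 15.3 CPM in untreated libraries. Both groups given IL-1B lay below the untreated libraries, and Dex overlapped Dex+IL-1B and untreated but lay above IL-1B. Abca1 fell by 0.69 ± 0.18 with IL-1B (log2, adjusted p = 0.0165), a call lost without untreated 1 or 2 in turn (adjusted p = 0.0646 and 0.0519, spanning 0.00253 to 0.0646 across settings). Abcg1, another sterol exporter, averaged 65.0 ± 14.9 CPM with IL-1B against 90.9 ± 6.15 CPM in untreated libraries (SD, n = 3 each), a difference of -0.48 ± 0.17 that missed the threshold (adjusted p = 0.0540). Abcg1 was called lower by DESeq2 and limma-voom (adjusted p = 0.0275 and 0.0412), without Dex 2 or 3, IL-1B 2, or Dex+IL-1B 1 or 3 in turn (adjusted p = 0.0401, 0.0394, 0.0106, 0.0264 and 0.0448), and without both rRNA-rich libraries (adjusted p = 0.00166, spanning 0.00166 to 0.146 across settings). Nr1h2, which encodes the LXR form found in most tissues, had -0.08 ± 0.09.

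The count of 15 was 3 without untreated 1, 1 without untreated 2 and 13 without untreated 3. It was 10, 9 and 10 without IL-1B 1, 2 and 3, and 9 in a fit to the compared groups alone. The share of all genes called was 14.1%, 11.1% and 17.8% without untreated 1, 2 and 3, and 17.3%, 16.6% and 18.9% without IL-1B 1, 2 and 3. In the fit to the compared groups alone that share was 16.7%. Within the untreated group, 7 of the 37 genes were above the group mean in untreated 1, 17 in untreated 2 and 30 in untreated 3. Among Dex libraries the same counts were 25, 8 and 28, so that Dex 2 was low in most of these genes. Among IL-1B libraries they were 20, 18 and 18, and among Dex+IL-1B libraries 11, 26 and 23. Hmgcs1, Lss, Fdps and Scd1, for example, were each higher in untreated 3 than in untreated 1.

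A pair of libraries stood apart in reads of Gm42418, Gm26917 and Lars2, genes that overlap ribosomal RNA repeats. These 3 genes held 18550 CPM in Dex+IL-1B 1 and 14036 CPM in IL-1B 2, while the remaining 10 libraries held 2328 to 5644 CPM. The share of mitochondrial reads was 1.54% and 1.56% in that pair and 1.13% to 1.30% elsewhere. Fasn, Acaca and Scap were highest of their group in exactly these libraries, and Srebf2 was too. Sc5d and Dhcr7 went the other way, with 45.7 and 35.9 CPM in IL-1B 2 against 67.4 and 67.2 and 52.7 and 52.2 CPM in the other IL-1B libraries. Abcg1 was highest of its group in both, with 78.5 CPM in Dex+IL-1B 1 against 60.3 and 55.2 CPM in the other Dex+IL-1B libraries, and 82.2 CPM in IL-1B 2 against 55.5 and 57.2 CPM in the other IL-1B libraries. The part of rRNA-overlapping and mitochondrial reads in these results was not tested. Without both libraries, Acaca was still called with IL-1B against untreated at 0.46, Fasn at 0.47 and Scap at 0.29, and the count of the 37 genes called was 14, with 22.7% of all genes called.

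**Figure D4:**
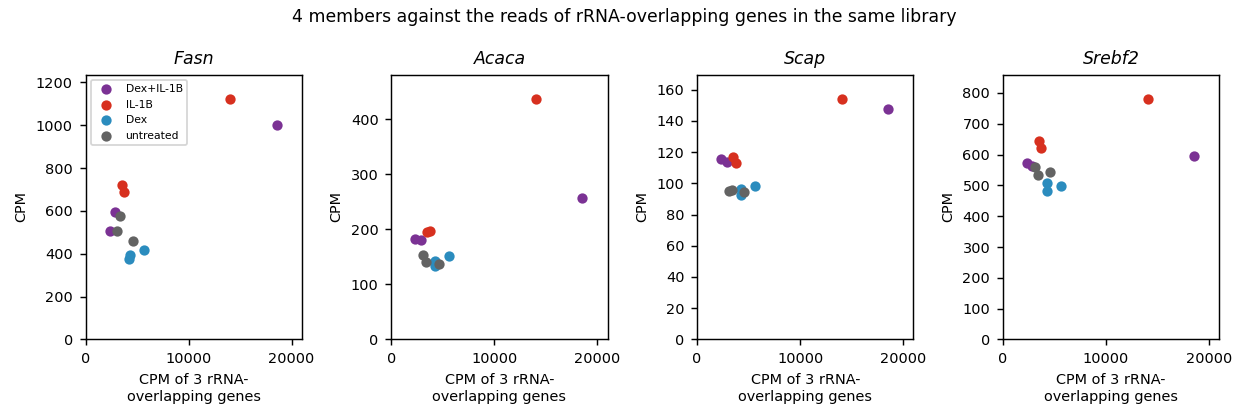
CPM of Fasn, Acaca, Scap and Srebf2 (vertical axes) against the summed CPM of 3 rRNA-overlapping genes in the same library (horizontal axis), with 1 point per library coloured by group. Dex+IL-1B 1 and IL-1B 2 stand apart at 18550 and 14036 CPM, and in both the 4 genes are the highest of their group.

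With Dex present in both groups, IL-1B came with higher Hmgcs1, Sqle, Scap and Fasn and lower Ebp, Acss2 and Mylip. This comparison of Dex+IL-1B with Dex shares no library with that of IL-1B with untreated. Of the 37 genes, 4 rose and 3 fell (edgeR quasi-likelihood test, adjusted p under 0.05), 7 in all, against 13.6% of all genes tested (8.6% higher, 4.98% lower). The median log2 difference of the 37 was -0.03, and that of all genes was -0.02. Every Dex+IL-1B library exceeded every Dex library for 11 of the 37 genes (background 19.6%), and the reverse held for 7 (background 18%). CD8 T and NK cell markers summed to 13.6 to 14.3 CPM in Dex+IL-1B libraries, against 8.20 to 11.5 CPM in Dex libraries. Cd8a and Cd8b1 were higher (means 5.59 and 7.43 CPM, against 3.66 and 5.32 CPM), but Klrk1 was not (0.35 against 0.44 CPM). The part of these markers in the differences was not tested. Hmgcs1 rose by 0.44 ± 0.10 (adjusted p = 0.00797), a call that held in every alternative (adjusted p = 0.000257 to 0.0449). Sqle rose by 0.43 ± 0.10 (adjusted p = 0.0112), not called without Dex 2 (adjusted p = 0.0501, spanning 0.00136 to 0.0501 across settings). Fasn rose by 0.82 ± 0.23 (adjusted p = 0.0372), and by 0.48 without Dex+IL-1B 1. Fasn was not called without Dex 1, 2 or 3, or Dex+IL-1B 1 in turn (adjusted p = 0.0713, 0.119, 0.0910 and 0.131) or with no low-count filter (adjusted p = 0.132, spanning 0.00349 to 0.132 across settings). Scap rose by 0.39 ± 0.12 (adjusted p = 0.0478). It was not called without untreated 1, 2 or 3, Dex 1, 2 or 3, or Dex+IL-1B 1 in turn (adjusted p = 0.0546, 0.0659, 0.0525, 0.0802, 0.110, 0.127 and 0.171), nor with median-ratio scaling, by limma-voom or with a stricter filter (adjusted p = 0.0525, 0.0538 and 0.0560, spanning 0.00773 to 0.171 across settings).

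The falls with IL-1B in the presence of Dex were in a sterol isomerase, an acetate enzyme and an LXR target. Ebp fell by 0.36 ± 0.08 (log2, adjusted p = 0.0132), not called without Dex 2 or 3, or Dex+IL-1B 3 in turn (adjusted p = 0.0605, 0.0538 and 0.0596, spanning 0.00147 to 0.0605 across settings). Acss2 fell by 0.69 ± 0.15 (log2, adjusted p = 0.00995), not called without Dex 2 (adjusted p = 0.0512, spanning 0.000590 to 0.0512 across settings). Mylip fell by 0.92 ± 0.26 (log2, adjusted p = 0.0288), not called without Dex 2, or Dex+IL-1B 1 or 2 in turn (adjusted p = 0.137, 0.0694 and 0.0953, spanning 0.00820 to 0.137 across settings). Genes without a call that gained one in an alternative included Idi1 at 0.53 ± 0.17 (adjusted p = 0.0574) and Msmo1 at 0.41 ± 0.13 (adjusted p = 0.0518). Idi1 was called by DESeq2 and limma-voom (adjusted p = 0.0265 and 0.0485), without Dex 3, IL-1B 2 or Dex+IL-1B 1 in turn (adjusted p = 0.0248, 0.0478 and 0.0359) and without both rRNA-rich libraries (adjusted p = 0.0281, spanning 0.0248 to 0.191 across settings). Msmo1 was called by DESeq2, with no low-count filter and without both rRNA-rich libraries (adjusted p = 0.0292, 0.0329 and 0.0214), and without untreated 3 or IL-1B 2 in turn (adjusted p = 0.0467 and 0.0275, spanning 0.0214 to 0.211 across settings). Without both rRNA-rich libraries Srebf2, Acaca and Abcg1 were called too (adjusted p = 0.0306, 0.00484 and 0.00803), as were Srebf2, Insig1 and Acaca without IL-1B 2 (adjusted p = 0.0275, 0.0434 and 0.00789), and Acaca in a fit to the compared groups alone (adjusted p = 0.0379). Over all alternatives Srebf2 ran from 0.0275 to 0.274, Insig1 from 0.0434 to 0.321, Acaca from 0.00484 to 0.524 and Abcg1 from 0.00803 to 0.392. The count of 7 was 1 without Dex 2, 12 without IL-1B 2 and 12 without both rRNA-rich libraries, where 6.46%, 18.3% and 14.7% of all genes were called.

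Side by side, the IL-1B difference without Dex and with Dex had the same sign in 31 of the 37 genes, against 77.9% of all genes tested. Of the 15 genes called without Dex, 15 had the same sign with Dex, and 6 were called in both: Hmgcs1, Sqle, Scap, Fasn, Acss2 and Mylip. Over all genes called without Dex, 98.6% kept their sign. Across the 37 genes the log2 differences had a Pearson correlation of 0.879, which describes genes that share libraries and pathways and are not independent replicates. Ebp was called with Dex and not without it, and the test of the difference itself is the interaction given below.

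**Figure D5:**
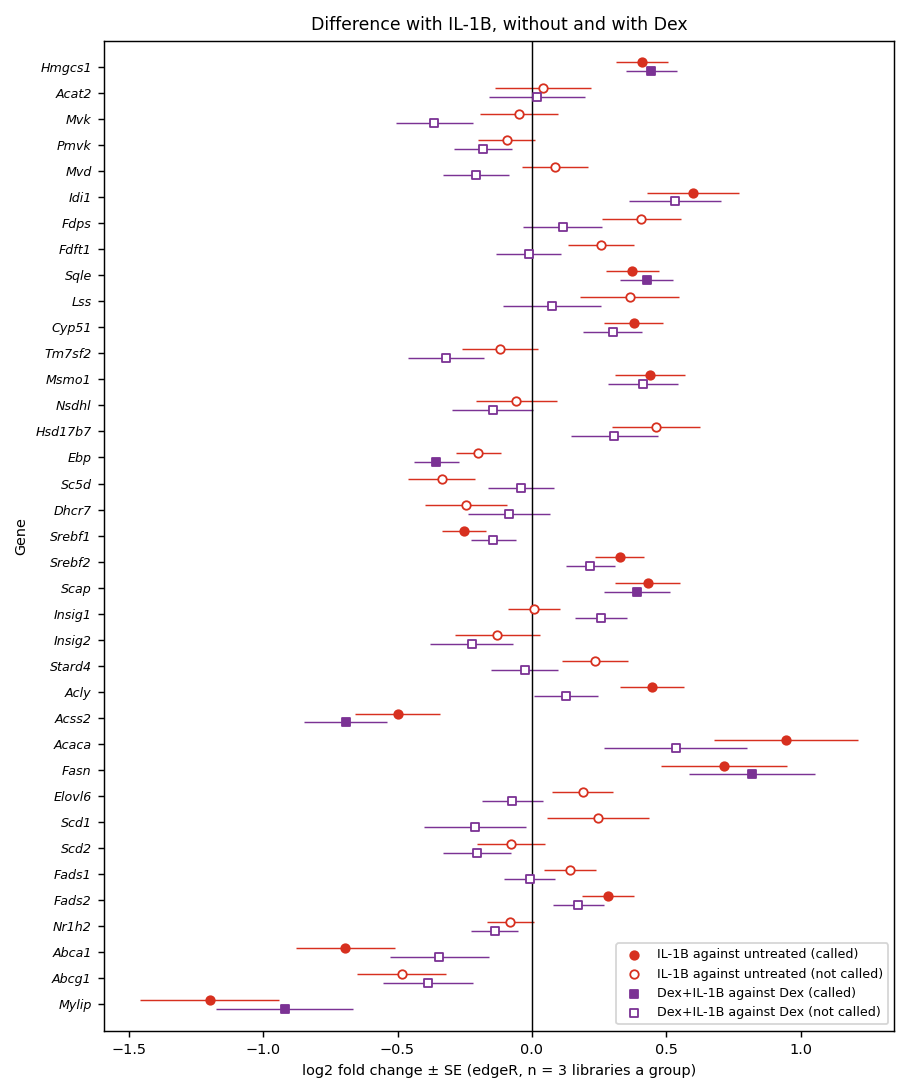
Log2 fold change ± SE of each gene for IL-1B against untreated (circles) and for Dex+IL-1B against Dex (squares), with n = 3 libraries a group and filled symbols where the gene was called. Hmgcs1, Sqle, Scap and Fasn are filled on the right in both comparisons, and Acss2 and Mylip on the left.

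Against untreated cells, the combination of Dex and IL-1B called 6 of the 37 genes, 2 higher and 4 lower, where 18.2% of all genes were called (10.3% higher, 7.82% lower). The combination raised Elovl6 and Scap and lowered Ebp, Srebf1, Abca1 and Mylip. No enzyme of cholesterol synthesis other than Ebp was called. The groups were apart, with Dex+IL-1B higher, for 8 of the 37 genes (background 20.6%) and, with Dex+IL-1B lower, for 6 (background 18.5%). Summed CD8 T and NK cell markers were higher in Dex+IL-1B libraries (13.6 to 14.3 CPM, against 8.43 to 9.97 CPM in untreated libraries). Cd8a and Cd8b1 were higher (means 5.59 and 7.43 CPM, against 3.54 and 4.54 CPM), but the NK-type marker Klrk1 was lower (0.35 against 0.67 CPM). Summed B cell markers were lower (88.0 to 99.2 CPM, against 113 to 179 CPM). Of these, Ighm averaged 55.0 against 88.0 CPM, but Pax5 7.26 against 7.24 CPM. The part of neither cell type was tested. Elovl6 rose by 0.62 ± 0.11 (adjusted p = 0.00273) and Mylip fell by 1.06 ± 0.25 (log2, adjusted p = 0.0108), and both calls held in every alternative (adjusted p = 3.17e-05 to 0.0208 and 0.00112 to 0.0468). Scap rose by 0.40 ± 0.12 (adjusted p = 0.0335), not called without untreated 1, 2 or 3, or Dex+IL-1B 1 in turn (adjusted p = 0.0786, 0.114, 0.0717 and 0.127, spanning 0.00473 to 0.127 across settings). Ebp fell by 0.32 ± 0.08 (log2, adjusted p = 0.0166), not called without Dex+IL-1B 3 (adjusted p = 0.0626, spanning 0.00260 to 0.0626 across settings). Srebf1 fell by 0.29 ± 0.08 (log2, adjusted p = 0.0262), not called without untreated 1 or 2, or Dex+IL-1B 1 or 3 in turn (adjusted p = 0.0578, 0.106, 0.0895 and 0.0659, spanning 0.00236 to 0.106 across settings). Abca1 fell by 0.69 ± 0.18 (log2, adjusted p = 0.0190), not called without untreated 1 or 2, or Dex+IL-1B 2 or 3 in turn (adjusted p = 0.0753, 0.0595, 0.0508 and 0.0832, spanning 0.00318 to 0.0832 across settings). The count of 6 was 3 without Dex+IL-1B 3 and 3 without untreated 2, where 11.7% and 8.98% of all genes were called.

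Some genes gained a call for the combination when libraries were left out. Abcg1, at -0.49 ± 0.17 (adjusted p = 0.0556), was called by DESeq2, limma-voom and a fit to the compared groups alone (adjusted p = 0.0267, 0.0415 and 0.0228). It was also called without Dex 2 or 3, IL-1B 1 or 2, or Dex+IL-1B 1 in turn (adjusted p = 0.0421, 0.0408, 0.0452, 0.0185 and 0.0224) and without both rRNA-rich libraries (adjusted p = 0.00228, spanning 0.00228 to 0.168 across settings). Acaca, at 0.53 ± 0.27 (adjusted p = 0.197), was called without IL-1B 2, in a fit to the compared groups alone and without both rRNA-rich libraries (adjusted p = 0.00654, 0.0316 and 0.00419, spanning 0.00419 to 0.474 across settings). Idi1, at 0.42 ± 0.17 (adjusted p = 0.105), was called without Dex 2 and without both rRNA-rich libraries (adjusted p = 0.0453 and 0.0420, spanning 0.0420 to 0.303 across settings). Pmvk was called without untreated 1 (adjusted p = 0.0320, spanning 0.0320 to 0.286 across settings), Sc5d without IL-1B 2 (adjusted p = 0.0295, spanning 0.0295 to 0.469) and Acss2 without Dex+IL-1B 2 (adjusted p = 0.0153, spanning 0.0153 to 0.314).

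Dex alone called 1 of the 37 genes, Elovl6, which rose, against 0.535% of all genes tested (0.369% higher). Elovl6 encodes the elongase that turns palmitate into stearate and lies on chromosome 3 from 129532355 to 129638495 (GRCm38). It had 139, 159 and 160.4 CPM in the Dex+IL-1B libraries, 118, 111 and 113 CPM with IL-1B, 167, 137 and 179 CPM with Dex, and 87.6, 98.1 and 113 CPM in untreated libraries. All 6 libraries given Dex lay above the 6 without it. With Dex alone the log2 difference was 0.69 ± 0.11 (adjusted p = 0.0172). The call was lost without untreated 1 or 2, or Dex 1 or 3 in turn (adjusted p = 0.115, 0.114, 0.117 and 0.125), so that the count of 1 was then 0, and in a fit to the compared groups alone (adjusted p = 0.0789, spanning 2.11e-05 to 0.125 across settings).

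The 18 enzymes of cholesterol synthesis showed no call with Dex by edgeR, DESeq2 or limma-voom, and 2 of them, Hmgcs1 and Acat2, had an unadjusted p under 0.05, as did 1352 of all 13821 genes tested. Hmgcs1 was lower in every Dex library than in every untreated one, at -0.31 ± 0.10 (adjusted p = 0.218), and Acat2 was at 0.39 ± 0.18 (adjusted p = 0.508). In SREBP control, Insig1 was lower in every Dex library, at -0.34 ± 0.10 (adjusted p = 0.178), and was called by DESeq2 and without both rRNA-rich libraries (adjusted p = 0.0468 and 0.0102, spanning 0.0102 to 0.611 across settings). Fasn had -0.37 ± 0.23 (adjusted p = 0.678) and was called without both rRNA-rich libraries (adjusted p = 0.0432, spanning 0.0432 to 1.00 across settings), where the count for Dex was 3 and 1.82% of all genes were called. Of the 37 genes, 3 were higher in every Dex library than in every untreated one (background 9.76%) and 6 were lower (background 8.85%). Those higher were Acss2, Elovl6 and Fads1, and those lower were Hmgcs1, Sc5d, Srebf1, Srebf2, Insig1 and Fasn. The median log2 difference of the 37 genes was 0.01, and that of all genes was 0.00. B cell markers were lower in the Dex libraries than in untreated libraries, by the sums given above, and their part in these values was not tested.

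Adding Dex to IL-1B called 0 of the 37 genes by edgeR, against 0.275% of all genes tested (0.246% higher, 0.0289% lower), and 0 by DESeq2 and by limma-voom. At an unadjusted p under 0.05 there were 4, Hmgcs1, Srebf2, Elovl6 and Fads2, against 932 of all 13821 genes tested. The differences leaned downward, with 28 of 37 negative, against 6866 of all 13821 genes. Their median was -0.13, against 0.00 for all genes. All Dex+IL-1B libraries lay below all IL-1B libraries for 7 genes (background 4.97%): Hmgcs1, Fdps, Fdft1, Cyp51, Srebf2, Acly and Fads2. They lay above for 1 (background 5.6%), Elovl6, at 0.43 ± 0.11 (adjusted p = 0.265). Hmgcs1 had -0.28 ± 0.10 (adjusted p = 0.546) and Srebf2 -0.24 ± 0.09 (adjusted p = 0.633). Without both rRNA-rich libraries the median over the 37 genes was -0.05, and 0 were called. The 18 enzymes of cholesterol synthesis summed to 1662 ± 114 CPM in the Dex+IL-1B libraries, 1844 ± 57.8 CPM with IL-1B, 1500.4 ± 191 CPM with Dex and 1539 ± 190.3 CPM in untreated libraries (SD, n = 3 each), so that the Dex+IL-1B mean stood between those of IL-1B and untreated.

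The interaction, the difference made by Dex with IL-1B minus the difference made by Dex without it, was called for 0 of the 37 genes and for 0% of all genes tested. At an unadjusted p under 0.05 there were 0 of the 37 and 427 of the 13821 genes. DESeq2 and limma-voom also called 0 of the 37, and over all genes they called 1 and 0. The fitted values ran from -0.46 for Scd1 to 0.35 for Abca1. Of the 37, 27 were negative, against 6886 of all 13821 genes tested. The median over the 37 was -0.10, and ran from -0.17 without Dex 2 to -0.03 without untreated 1. Without both rRNA-rich libraries it was -0.05. A difference between the Dex effects in the presence and absence of IL-1B was therefore not detectable here for any of the 37, which does not show that they act alike.

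Beyond the 37, 57 other genes of sterol and lipid handling were listed and 56 were tested (Me1 was not). With IL-1B 11 of the 56 rose (background 11.9%) and 9 fell (background 9.51%). Cpt1a, which admits fatty acids to the mitochondrion for oxidation, fell by 0.95 ± 0.10 with IL-1B (log2, adjusted p = 9.91e-05), by 0.83 ± 0.10 with Dex+IL-1B against untreated (adjusted p = 0.000178) and by 0.77 ± 0.10 with Dex+IL-1B against Dex (adjusted p = 0.000496). Of 8 genes of fatty acid oxidation 0 rose and 4 fell with IL-1B (background 9.51% lower), 3 fell with the combination against untreated (7.82% lower) and 4 fell with Dex+IL-1B against Dex (4.98% lower). Tmem97, a sterol-regulated membrane protein, rose by 1.02 ± 0.16 with IL-1B (adjusted p = 0.00120) and by 0.89 ± 0.16 with Dex+IL-1B against Dex (adjusted p = 0.00352). Mbtps2, a protease that releases SREBP, rose by 0.57 ± 0.09 with IL-1B (adjusted p = 0.000869) and by 0.53 ± 0.09 with the combination against untreated (adjusted p = 0.00127). Hacd3, a dehydratase of fatty acid elongation, rose by 0.59 ± 0.10 with the combination against untreated (adjusted p = 0.00216), and Acaa2, a thiolase of oxidation, fell by 0.58 ± 0.11 with Dex+IL-1B against Dex (log2, adjusted p = 0.00492). Each of these named calls held in every alternative. With the combination against untreated 7 of the 56 rose (background 10.3%) and 6 fell (background 7.82%), and with Dex+IL-1B against Dex 6 rose (background 8.6%) and 6 fell (background 4.98%). With Dex alone and with Dex added to IL-1B edgeR called 0 of the 56, with 3 of the 56 at an unadjusted p under 0.05 in each (1352 and 932 of all 13821 genes), and DESeq2 and limma-voom also called 0. Without Dex 2 the count with Dex alone was 1, where 1.81% of all genes were called. The count of 20 with IL-1B was 7 without untreated 2, 11 without untreated 1, 13 without untreated 3 and 12 without IL-1B 1 or 2, and 10 in a fit to the compared groups alone. Without these libraries, in that order, 11.1%, 14.1%, 17.8%, 17.3% and 16.6% of all genes were called, and 16.7% in that fit. The count of 13 with the combination was 7 without untreated 1 or 2, where 12.1% and 8.98% of all genes were called. The count of 12 with Dex+IL-1B against Dex was 6 without Dex 2 and 7 without Dex+IL-1B 3, where 6.46% and 8.59% were called.

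Some of these genes share exon bases with a neighbour on GENCODE annotation of GRCm38, so their values are uncertain. On the same strand, Fdps shares 1124 bases with Gm43738 and Tm7sf2 shares 532 with Vps51, and strand could not separate the reads of either pair. On opposite strands, Scap shares 985 bases with 5830462I19Rik, Fdft1 774 with the protease gene Ctsb, Hmgcs1 557 with Gm48342, and Acss2 395 with Gss and 197 with Ggt7. Lss, Idi1, Cyp51, Srebf1 and Elovl6 also overlap a gene on the opposite strand, by 34 to 381 bases. Whether counting used strand is not stated in the sources used here, so reads of those pairs cannot be told apart. Over all libraries 5830462I19Rik had 160 counts against 28906 for Scap, and Ctsb 66175 against 24617 for Fdft1. Ggt7 and Gss had 11833 and 4851 against 6367 for Acss2, and Vps51 had 7714 against 5062 for Tm7sf2. Gm43738 and Gm48342 were not among the gene identifiers counted.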

How the data were processed

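Poly(A) RNA of 12 libraries in 4 groups of 3 was sequenced. The authors deposited raw read counts per gene in 1 table, with no normalization. The submitters' processing notes name STAR 2.7.0a, HTSeq 0.6.1, DESeq2 and the build GRCm38 (mm10), without settings or strand. The labels' protocols mention no molecular identifiers, so PCR copies can be counted as separate reads.

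From the deposited counts, CPM used TMM-scaled library sizes, and FPKM divided CPM by merged GENCODE M21 exon length. Of 35275 identifiers, 34490 had a symbol. The low-count filter of edgeR left 13821 genes, and 0.0562% of counts lay in the others. The edgeR 4.0.16 quasi-likelihood test (R 4.3.3, robust, 1 fit over 12 libraries with 8 residual degrees of freedom) gave log2 fold changes, and p-values were Benjamini-Hochberg adjusted over all genes tested, with a call at 0.05. SE was the log2 fold change divided by the square root of F. The scripts were tested on simulated data. Alternatives were median-ratio scaling, DESeq2 1.42.0, limma-voom (limma 3.58.1), no filter, a filter of 1 CPM in 6 libraries, a fit to the compared groups alone, the replicate number as a block, each library left out, and both rRNA-rich libraries left out. In the last 2 kinds, a group keeps 2 libraries.

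The members, gene lists and alternatives were chosen with earlier results of these data known. Library values are printed for the 16 genes with the smallest adjusted p in any comparison between groups or belonging to SREBP control (Srebf1, Srebf2, Insig1 and Scap), and for Fasn. Of the other lipid genes, up to 3 per comparison with the smallest adjusted p are named.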

Additional observations from a re-analysis of the deposited data

How the results depend on the processing

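No log2 difference that was called changed its sign under any alternative run. The count of the 37 genes called with Dex against untreated, reported as 1, was 2 by DESeq2, 0 in a fit to the compared groups alone, 3 without both rRNA-rich libraries, and 0 to 1 when 1 library was left out. With IL-1B against untreated, reported as 15, it was 9 in a fit to the compared groups alone, where 16.7% of all genes were called. When 1 library was left out it was 1 (without untreated 2) to 16 (without Dex 2), with 11.1% and 21.1% of all genes called. With Dex+IL-1B against untreated, reported as 6, it was 3 to 9 when 1 library was left out. Of all genes, 8.98% were called without untreated 2 and 11.7% without Dex+IL-1B 3 (count 3), and 23.9% without IL-1B 2 (count 9). With Dex+IL-1B against Dex, reported as 7, it was 12 without both rRNA-rich libraries, where 14.7% of all genes were called. When 1 library was left out it was 1 (without Dex 2) to 12 (without IL-1B 2), with 6.46% and 18.3% of all genes called. The cause of these changes was not tested. With Dex+IL-1B against IL-1B and for the interaction the count was 0 in each alternative run. The interaction could not be fitted to 2 groups alone. Among all genes, the count with Dex against untreated was 74, and 266 by DESeq2, 138 with no low-count filter, 257 without both rRNA-rich libraries and 16 to 257 when 1 library was left out (16 without untreated 1 or Dex 3, 17 without untreated 2, 18 without Dex 1, 43 without Dex+IL-1B 3, 120 without IL-1B 2 and 257 without Dex 2). With Dex+IL-1B against IL-1B it was 38, and 95 by DESeq2, 18 in a fit to the compared groups alone, 57 without both rRNA-rich libraries and 17 to 46 when 1 library was left out (17 and 19 without IL-1B 1 and 3, 20 without either of Dex+IL-1B 2 and 3).

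Whether the replicate numbers pair the libraries could not be settled, since deviations among 3 libraries a group are too few to decide it. Of 18 same-numbered pairs 7 had a correlation of deviations over 0.1 (-0.26 to 0.24), against 8 of 36 differently numbered pairs. With the replicate number as a block, the counts of the 37 genes called were 1 with Dex and 14 with IL-1B against untreated, 7 with Dex+IL-1B against untreated, 8 with Dex+IL-1B against Dex, 0 with Dex+IL-1B against IL-1B and 0 for the interaction. Of all genes, 0.441%, 20.1%, 17.6%, 12.9%, 0.224% and 0% were called with the block, in the same order. Depth limits Mylip most, at 34 counts in its lowest library. In the simulation 28.4% of 1.5-fold changes were called with IL-1B against untreated, with far fewer genes changed than were called in the data.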
